A study of Mus musculus with 4 samples.

Results

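Small nucleolar RNA (snoRNA) host transcripts are RNAs whose introns carry snoRNAs, and 7 of them are described here in stimulated mouse CD4 T cells: Snhg1, Snhg4, Snhg6, Snhg8, Snhg12, Gas5 and Zfas1. They were picked by name from the 32285 genes of the count tables, with earlier results of these data known, so their levels across resting and activated cells are given as a description without a test. All 7 were detected in every library. The cells were sorted as CD3+CD4+ from the spleens of C57BL6/J mice, stimulated for 6 hours through CD3 and CD28 with antibody-coated beads, and profiled with droplet 3′ chemistry that counts unique molecular identifiers (UMIs, about 1 per captured RNA molecule). There were 4 libraries, all of them stimulated: 1 female and 1 male library labelled Irf5-/-, and 1 female and 1 male library labelled WT (wild type). Irf5 encodes an interferon regulatory factor. The labels give neither the age of the mice, nor how many went into a library, nor which part of Irf5 was deleted. Cells with at least 2000 UMIs, at least 500 detected genes and at most 10% mitochondrial UMIs were kept, 19100 in all.

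After splicing, the introns of a host transcript are processed into snoRNAs, which guide the chemical modification or the cleavage of ribosomal RNA in the nucleolus. Box C/D snoRNAs direct 2′-O-methylation with Nop56, Nop58 and Fbl (fibrillarin), and box H/ACA snoRNAs direct pseudouridylation with Dkc1 (dyskerin). The spliced remainder is exported, and for Gas5 it is known to be translated briefly and then removed by nonsense-mediated decay, so that its level depends on decay as well as on transcription. Gas5 was named for its accumulation in growth-arrested cells. T cells enlarge their nucleoli and make ribosomes within hours of antigen receptor stimulation. A 3′ count of UMIs reports the spliced or unspliced polyadenylated host RNA, not the snoRNAs.

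Host genes are also known for promoters that start transcription at a pyrimidine tract. The 80 bases around the annotated start (50 before and 30 from it) are shown for the 4 members that have a TATA-like word at the place of a TATA box, because 2 of them (Snhg1 and Snhg12) were higher in activated cells and the other 2 (Gas5 and Snhg8) were level. Sequences are from RefSeq on GRCm38.p6, 5′ to 3′ on the transcribed strand; capitals mark the TATA-like word and, where there is one, the pyrimidine run at the start.
Snhg1 (chr19:8723437-8723516, plus strand): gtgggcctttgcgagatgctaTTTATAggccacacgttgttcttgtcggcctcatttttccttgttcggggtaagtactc
Snhg12 (chr4:132308628-132308707, plus strand): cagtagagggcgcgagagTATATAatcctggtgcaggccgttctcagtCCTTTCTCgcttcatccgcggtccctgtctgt
Gas5, downstream start (chr1:161035116-161035195, plus strand): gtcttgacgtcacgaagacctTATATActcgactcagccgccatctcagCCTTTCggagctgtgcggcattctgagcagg
Snhg8 (chr3:123508307-123508386, minus strand): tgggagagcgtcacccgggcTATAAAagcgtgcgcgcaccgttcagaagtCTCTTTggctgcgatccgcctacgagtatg

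RefSeq promoters were matched for 5 of the 7 members (Snhg1, Snhg8, Snhg12, Gas5 and Zfas1), and Gas5 has a pair of annotated starts. The word TATAAA, the word TTTATA or the word TATATA, searched on the transcribed strand 15 to 40 bases before the start, were present at these 4 starts and absent from the upstream Gas5 start and from Zfas1. Over all 32851 promoters of the table, 3.18% held such a word. A run of at least 5 C or T that opened with C within 5 bases of the start was present at the Snhg8, Snhg12 and downstream Gas5 starts, and in 18.3% of all promoters. The word CACGTG, which reads the same on both strands and is bound by Myc among other factors, was found at none of the matched starts and in 7.15% of all promoters, searched over 250 bases before and 50 from the start. The motifs do not overlap each other, they were chosen after the sequences had been read, and a match is a description, not a site. The TATA-like word and the pyrimidine run occurred both in members that were higher in activated cells and in members that were level.

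By GENCODE M21 on GRCm38, the hosts are short genes on 6 chromosomes. Gas5 (growth arrest specific 5, ENSMUSG00000053332, chr1:161034422-161038539, plus strand) holds 9 snoRNA entries on its strand, among them Snord47, Snord78 and Snord80. Snhg1 (ENSMUSG00000108414, chr19:8723475-8726443, plus strand) holds 8, among them Snord22. Snhg12 (ENSMUSG00000086290, chr4:132308623-132311024, plus strand) holds 5, of which Snora16a, Snora44 and Snora61 are H/ACA RNAs and Snord99 is a C/D RNA. Zfas1 (ENSMUSG00000074578, chr2:167062934-167065862, plus strand) holds 3, among them Snord12. Snhg4 (ENSMUSG00000117869, chr18:35553371-35558316, plus strand) holds 1, Snora74a. Snhg6 (ENSMUSG00000098234, chr1:9941959-9944118, minus strand) holds 1, Snord87, and Snhg8 (ENSMUSG00000104960, chr3:123507552-123508404, minus strand) holds 1, Snora24. Entries are not all distinct snoRNAs: Snord80 in Gas5 and Snora16a in Snhg12 are each entered more than once at nearly the same place. The 4 members that were higher in activated cells carry between 1 and 8 snoRNA entries, and hosts of both snoRNA classes are among them.

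Several of these loci overlap other genes, and whether counting used strand is not given in the sources used here, so reads of the overlaps may be split or lost. The symbol Snhg4 stands for 2 identifiers in the tables. The one used holds 21077 UMIs, and the other, ENSMUSG00000117694, holds 81 and is a longer protein-coding gene in GENCODE (Gm28285) that shares 4913 bases of the same strand, which makes the Snhg4 level uncertain. Gas5 overlaps Zbtb37 by 428 bases on opposite strands, Zfas1 overlaps Znfx1 by 82 and Snhg6 overlaps Mcmdc2 by 127.

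The libraries differed in ways that touch the results. They held 28841161 to 55850754 UMIs, of which kept cells carried 89.2% (female labelled Irf5-/-), 55.6% (female labelled WT), 89.1% (male labelled Irf5-/-) and 83.2% (male labelled WT), and they gave 6178, 1814, 6543 and 4565 cells in that order. The female library labelled WT stood apart with the fewest cells and 36.2% of its UMIs in droplets under 200 UMIs, against 8.62% to 14.7% in the others. Any 2 libraries shared 2 to 14 cell barcodes. A UMI of a T cell marker (Cd3e, Cd3d, Cd3g, Trac, Cd4 or Trbc2) was found in 99.2% to 99.8% of cells. RNA of Irf5 itself was higher in the libraries labelled Irf5-/-, with 8.57 and 9.07 CPM (UMIs per 1000000 UMIs) in the female and male library, than in those labelled WT, with 0.936 and 1.18. Whether these 3′ reads lie outside the deleted part is not given in the sources used here, so they check neither label, and the libraries are named by their labels throughout.

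Cells were placed on an activation score, the log2 ratio of 14 activation genes (such as Cd69, Nr4a1, Egr2, Il2ra and Il2) to 8 resting genes (such as Klf2, S1pr1 and Il7r) after each cell was thinned to 2000 UMIs. Activated cells scored at least 1, resting cells at most -1, and no member or nucleolar gene entered the score. Activated cells made up 66.8% to 68.2% of a library and resting cells 21.4% to 24.4%, and 14.6% of all cells lay within 0.5 of a limit. Levels are CPM (UMIs per 1000000 UMIs of all cells of a state), which is a share of the captured RNA. Activated cells also carried 1.69 times as many UMIs per cell as resting cells (mean of 4 libraries), so UMIs per cell are given beside the shares. UMIs are 3′ tags counted per molecule and are not divided by gene length.

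In activated cells 4 of the 7 hosts (Snhg1, Snhg4, Snhg6 and Snhg12) were higher than in resting cells by 3.71 to 7.04 times in CPM, Zfas1 was 1.66 times higher, and Gas5 and Snhg8 were near the same share in both states. The steepest was Snhg4, the host of Snora74a. It stood at 26.6 and 25.7 CPM in resting cells of the female and male library labelled Irf5-/- and at 20.3 and 28.9 in those labelled WT. In activated cells the same libraries gave 166, 171, 186 and 177. Every activated value was thus far above every resting value, and the ratio was 7.04 ± 1.44 (SD, n = 4 libraries). The ratio of the female library labelled WT was 9.18 and rested on 47 resting UMIs, against 6.11 to 6.64 in the other libraries. The second identifier, with 81 UMIs in all, is left out of these levels.

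Snhg6, whose gene holds Snord87, stood at 38.4, 37.6, 29.6 and 39.1 CPM in resting cells of the female Irf5-/-, female WT, male Irf5-/- and male WT libraries, an order kept in what follows. It stood at 218, 227, 205 and 241 in activated cells, a ratio of 6.20 ± 0.52 (SD, n = 4). The states did not overlap.

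Snhg1, which also lies head to head with Slc3a2, stood at 90.4, 90.7, 85.0 and 84.6 CPM in resting cells and at 390, 390, 412 and 405 in activated cells. Its ratio was 4.56 ± 0.29 (SD, n = 4), with libraries closer to each other than for Snhg4. Slc3a2, the heavy chain of amino acid transporters, starts 106 bases away on the other strand and was higher too, by 2.42 ± 0.11 on the log2 scale (SD, n = 4).

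Snhg12, which carries snoRNAs of both classes, stood at 62.3, 70.0, 68.6 and 74.7 CPM in resting cells and at 238, 252, 259 and 270 in activated cells. This ratio, 3.71 ± 0.11 (SD, n = 4), was the least variable of the 4. Trnau1ap, a selenocysteine tRNA-associated factor 739 bases away on the other strand, was higher by 0.87 ± 0.05 (log2, SD, n = 4).

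Zfas1, a C/D host at the start of the zinc finger gene Znfx1, stood at 111, 156, 106 and 128 CPM in resting cells and at 194, 218, 193 and 217 in activated cells. Its ratios were 1.75, 1.39, 1.81 and 1.69, so the female library labelled WT was the lowest, and 3 of the 4 libraries were past 1.5 times. That library also had the highest summed level of 7 erythroid markers in resting cells, at 7547 CPM against 18.9 to 234 in the others, although 17 cells of it carried at least 10 erythroid UMIs. Without cells that held markers of other cell types the mean log2 ratio of Zfas1 was 0.79 against 0.73, and Zfas1 then passed 1.5 times in all 4 libraries. That removal also took out cells with B, NK, CD8 T and myeloid markers. The part of erythroid RNA in the ratios was not tested. Znfx1, which overlaps Zfas1 on the other strand, moved the opposite way, at -1.90 ± 0.18 (log2, SD, n = 4).

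Gas5 stood at 499, 574, 519 and 593 CPM in resting cells and at 591, 586, 601 and 637 in activated cells. The ranges of the states overlapped, and the ratio was 1.11 ± 0.08 (SD, n = 4). Zbtb37, a zinc finger gene on the other strand, was lower in activated cells by -0.90 ± 0.19 (log2, SD, n = 4). Snhg8, the host of Snora24, stood at 152, 149, 156 and 181 in resting cells and at 162, 174, 162 and 198 in activated cells, a ratio of 1.09 ± 0.06 (SD, n = 4). Both were slightly higher in activated cells within each library, and the ranges of the libraries overlapped between states for both.

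**Figure D1:**
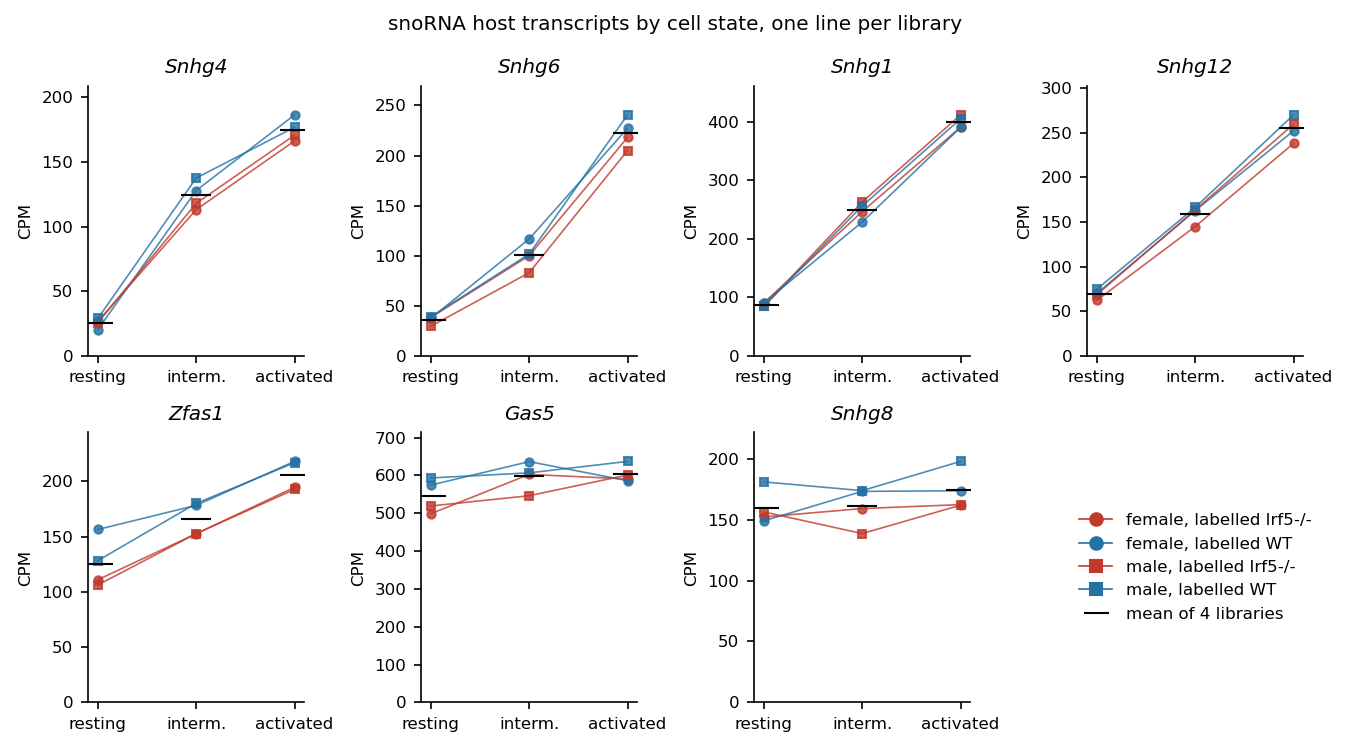
CPM (vertical axes, from 0) of each host in resting, intermediate and activated cells; a line is a library (red labelled Irf5-/-, blue labelled WT, circles female, squares male) and a black bar is the mean of 4 libraries. Snhg4, Snhg6, Snhg1 and Snhg12 climb without overlap between resting and activated cells, Zfas1 climbs less, and Gas5 and Snhg8 stay level.

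Droplets under 200 UMIs, taken here as a measure of free RNA, held every host at a mean level above that of resting cells. Snhg1 stood there at 383 CPM against 87.7 in resting cells, Snhg6 at 173 against 36.2, Snhg12 at 201 against 68.9 and Snhg4 at 83.7 against 25.4 (means of 4 libraries). Gas5 stood at 682 against 546, Zfas1 at 197 against 125 and Snhg8 at 193 against 160. The nucleolar genes Ncl and Nop56 were also higher there, at 2574 against 953 and 374 against 135. The share of free RNA in the resting levels, and its part in the ratios, was not tested.

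Counted per cell instead of as CPM, all 7 were higher in activated cells, which have more RNA captured. Snhg4 went from 0.132 ± 0.040 to 1.55 ± 0.44 UMIs per cell (mean ± SD over 4 libraries), and Snhg1 from 0.455 ± 0.109 to 3.51 ± 0.92. Gas5 went from 2.89 ± 0.94 to 5.33 ± 1.52, a ratio of 1.87 ± 0.16 within libraries, and Snhg8 had a ratio of 1.84 ± 0.07. The ratios of Gas5 and Snhg8 are thus close to the 1.69-fold difference in total UMIs per cell. Summed, the 7 hosts made up 0.0979% to 0.113% of the UMIs of resting cells and 0.196% to 0.214% of those of activated cells. Gas5 gave 50.9% to 52.5% of the hosts' UMIs in resting cells and 28.8% to 30.1% in activated cells, so the mix of host transcripts shifted from mostly Gas5 toward Snhg1, Snhg4, Snhg6 and Snhg12.

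Across all 8450 genes with at least 5 CPM on average, 22.3% were past 1.5 times higher in activated cells in each of the 4 libraries and 27.9% were past it lower. The members counted 4 of 7 higher and 0 of 7 lower. The median log2 ratio was 1.89 over the 7 members and -0.09 over all genes. With the trimmed mean scaling of edgeR the median over all genes moved to 0.27, and the share of higher genes among those past the limit rose from 44.4% to 63.0%. Under that scaling Zfas1 also passed, at a log2 ratio of 1.07, while Gas5 and Snhg8 stood at 0.49 and 0.47 and did not. No member changed direction under any alternative tried.

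Along the whole score the hosts took different courses. Snhg1 stood at 60.4 ± 12.1 CPM in cells scoring below -3, at 263 ± 12 between 0 and 1, and at 492 ± 21 at 4 and above (mean ± SD, n = 4). Snhg6 went from 27.5 ± 5.1 through 110 ± 18 to 313 ± 32 in the same bins, and Snhg12 from 56.9 ± 5.3 through 167 ± 14 to 319 ± 20. These 3 were highest in the top bin. Snhg4 instead went from 11.0 ± 2.7 to 182 ± 17 between 2 and 3, and stood at 165 ± 7 at 4 and above. Ncl (nucleolin) levelled off likewise, at 4968 ± 164 between 3 and 4 and 4947 ± 108 above 4, while Nop56 was highest in the top bin, at 867 ± 18. Zfas1 went from 105 ± 22 to 214 ± 17. Gas5 stayed between 515 ± 51 and 631 ± 17 and Snhg8 between 153 ± 20 and 176 ± 14 in all 9 bins.

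**Figure D2:**
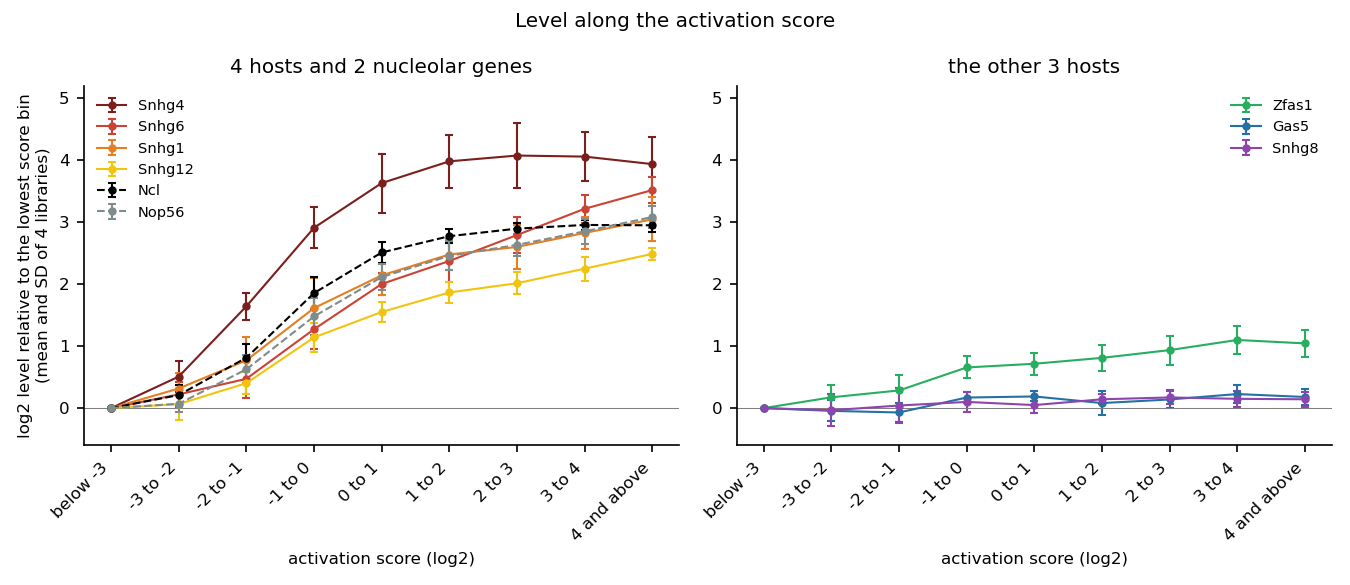
Log2 level relative to the lowest score bin (vertical axes; points and bars are the mean and SD of 4 libraries) against the activation score in 9 bins. Snhg4 has the steepest course and is flat above a score of 1, Snhg6, Snhg1, Snhg12 and Nop56 are highest in the top bin, Zfas1 climbs by about 1 log2 unit, and Gas5 and Snhg8 are flat.

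Clusters made without the members and without the described gene lists gave a finer view. Cluster 4, led by Ccl4, Il2 and Tnfsf11 (a chemokine, the T cell growth factor and the RANK ligand), had the highest level of each of the 4 activated-high hosts. Snhg1 stood there at 535 ± 20 CPM, Snhg6 at 370 ± 20, Snhg12 at 346 ± 14 and Snhg4 at 204 ± 7 (mean ± SD, n = 4). Snhg6 was itself among the 30 leading genes of that cluster. Cluster 2, led by Rflnb, Il7r and Cnp and made up of resting cells to 92.5%, had the lowest level of 6 hosts, with Snhg4 at 10.4 ± 1.9 and Snhg6 at 27.4 ± 2.0.

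Cluster 5, led by Egr3, Egr1 and Cxcl10, had a higher median score than cluster 4 (4.25 against 3.70) and yet lower levels of all 7 hosts. Snhg6 stood there at 224 ± 18, Snhg1 at 411 ± 19 and Snhg4 at 128 ± 8, and the libraries of clusters 4 and 5 did not overlap for these 3. Cluster 1, led by Itm2a and Dctpp1, was nearly level with cluster 4 for Snhg4 (198 ± 10 against 204 ± 7, with overlapping ranges) but far below it for Snhg6 (152 ± 13). Cluster 6 is regulatory T-like, with Foxp3, Gpr83 and Ikzf2 leading. It had the lowest Snhg8, at 116 ± 20, a level whose range overlapped those of clusters 5 and 7. Cluster 10, with 134 cells and a median of 14533 UMIs, was led by haemoglobin and immunoglobulin genes and left unnamed. It had the highest Gas5, at 1295 ± 136 against 516 ± 48 to 671 ± 16 elsewhere, with no overlap. Its Zfas1 stood at 296 ± 32, next to 258 ± 16 in cluster 4, with overlapping ranges. A cluster of 20 cells was left out of these levels.

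**Figure D3:**
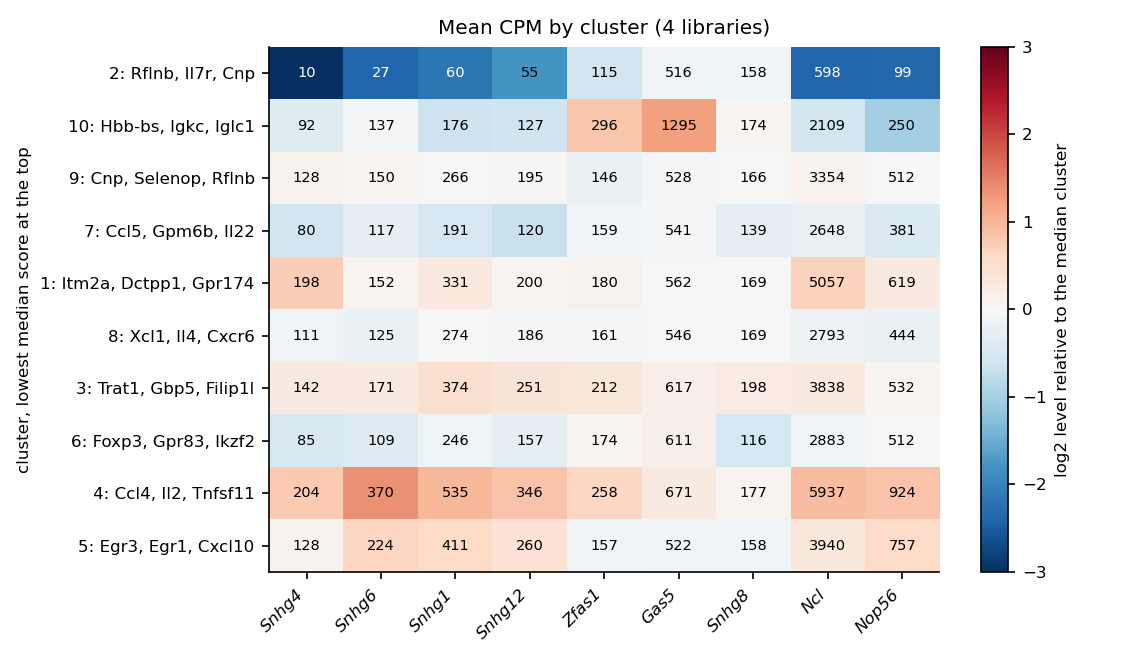
Mean CPM over 4 libraries (printed in each cell) of the 7 hosts, Ncl and Nop56 in 10 clusters, ordered by median score and named by 3 leading genes; colour is the log2 level relative to the median cluster of that gene. Cluster 4 (Ccl4, Il2, Tnfsf11) is highest for Snhg4, Snhg6, Snhg1, Snhg12, Ncl and Nop56, and cluster 10 for Gas5 and Zfas1.

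The rule named Ncl, which binds ribosomal RNA precursors, and Nop56, a core protein of box C/D particles, as nucleolar companions; both are themselves snoRNA hosts. Ncl stood at 953 ± 82 CPM in resting and 4785 ± 105 in activated cells, and Nop56 at 135 ± 16 and 696 ± 12 (mean ± SD, n = 4). Their ratios, 5.05 ± 0.50 and 5.21 ± 0.59, lie between those of Snhg1 and Snhg6. Across cells thinned to 2000 UMIs, the mean Pearson correlation with Ncl over the 4 libraries was 0.32 for Snhg1, 0.27 for Snhg4, 0.27 for Snhg6, 0.24 for Snhg12, 0.09 for Zfas1, 0.04 for Gas5 and 0.01 for Snhg8. With Nop56 the values were 0.23, 0.15, 0.21, 0.19, 0.10, 0.03 and 0.01 in the same order. Ncl and Nop56 correlated with each other at 0.47. With all UMIs of a cell scaled to 10000 in place of thinning, the values with Ncl were 0.56 for Snhg1, 0.50 for Snhg4, 0.46 for Snhg6, 0.41 for Snhg12, 0.18 for Zfas1, 0.11 for Gas5 and 0.08 for Snhg8, with Nop56 they ran from 0.07 for Snhg8 to 0.52 for Snhg1 (Snhg4 at 0.43), and Ncl and Nop56 stood at 0.71, so the size of these correlations depended on this choice. Cells of a library share its depth, free RNA and counting noise, each host averages 0.257 to 1.15 UMIs per thinned cell, and the values are descriptions of 1814 to 6543 cells per library.

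Among 4591 genes with at least 0.05 UMI per thinned cell, Snhg1 held place 92 by its correlation with Ncl, Snhg4 place 167, Snhg6 place 171 and Snhg12 place 233. Zfas1, Gas5 and Snhg8 held places 1213, 1932 and 2541. For Nop56 the places were 63 for Snhg1, 93 for Snhg6, 140 for Snhg12 and 219 for Snhg4. Of the 14 pairs of a host with Ncl or Nop56, 8 had a mean above 0.1. Within activated cells alone the values were lower: Snhg4 at 0.14, Snhg6 at 0.14, Snhg1 at 0.14 and Snhg12 at 0.11 with Ncl, and Snhg8 at -0.02. Within resting cells Snhg4 correlated with Ncl at 0.15, Snhg1 at 0.11, Snhg12 at 0.09 and Snhg6 at 0.055, with libraries spread from 0.08 to 0.21 for Snhg4 and from 0.02 to 0.12 for Snhg6. For these 4 hosts the mean within either state was below that over all cells.

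**Figure D4:**
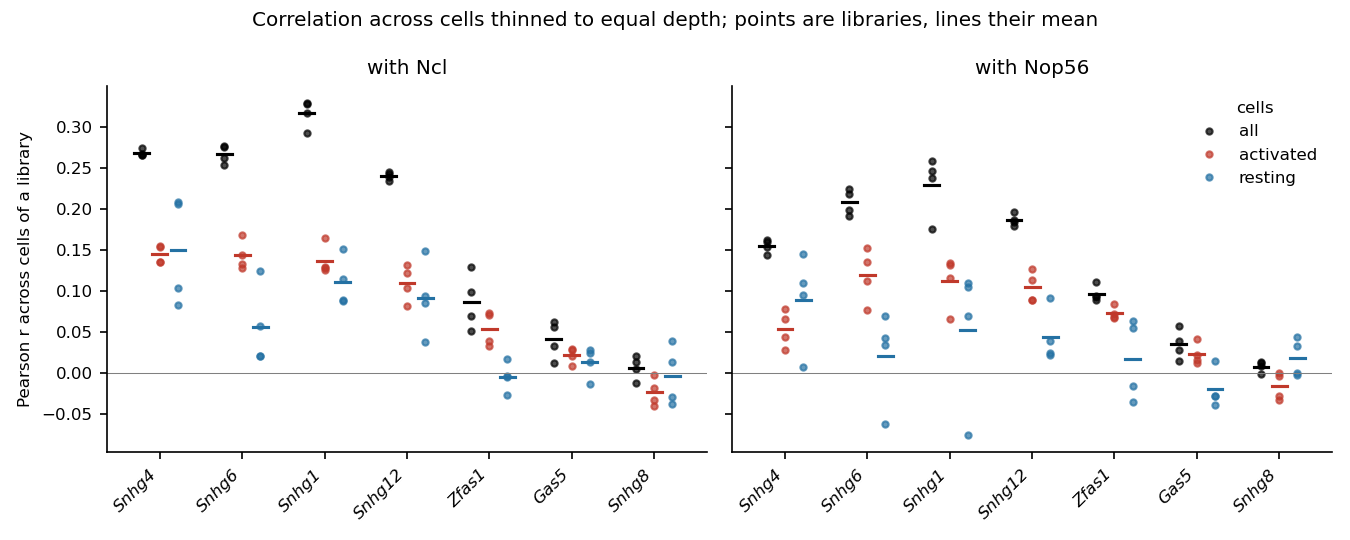
Pearson correlation across cells thinned to 2000 UMIs (vertical axis) of each host with Ncl (left) and Nop56 (right); points are the 4 libraries and lines their mean, for all cells (black), activated cells (red) and resting cells (blue). The 4 activated-high hosts lie above Zfas1, Gas5 and Snhg8 when all cells are used, and lower within each state.

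The 10 genes nearest to the summed hosts, members left out, were Npm1 (0.35), Ncl (0.35), Eif3c (0.31), Cd69 (0.29), Eif2s2 (0.28), Hsp90ab1 (0.28), Eif5a (0.27), Serbp1 (0.27), Anp32b (0.26) and Nop56 (0.26), as mean correlation over 4 libraries. Npm1 encodes nucleophosmin, a nucleolar chaperone, and Eif3c, Eif2s2 and Eif5a encode translation factors. Cd69 is an activation marker that is part of the score. Genes near single members were looked up after their values were seen. Gas5 lay nearest to Snhg12 (0.12), Zfas1 (0.12) and 2410006H16Rik (0.11), followed by Rpl3 (0.10), and Snhg8 nearest to Rps20 (0.07). 2410006H16Rik (chr11:62602877-62604807) is a noncoding gene with 3 snoRNA entries inside it, which is no member of any list here. Its log2 ratio of activated over resting cells was 0.18 ± 0.12 (SD, n = 4), close to Gas5 and Snhg8.

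Other genes of the pathway were described by the same count, from lists chosen with earlier results known. Of 14 further noncoding hosts, 10 passed the level limit and 7 were past 1.5 times higher in every library, with a median log2 ratio of 1.65. Dancr went from 9.98 to 60.5 CPM and Snhg15 from 34.9 to 202 (means of 4 libraries). Epb41l4aos had a log2 ratio of 0.45 and Snhg14 one of -0.64, neither past the limit. Of 14 protein-coding hosts 10 were past it higher, led by Nop58 at 2.81 and Hspa9 (a mitochondrial chaperone) at 2.69, while Eef2 stood at -0.48 and Eif4a2 at -0.03.

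The core proteins of snoRNA particles were all past 1.5 times higher in every library. All 4 core proteins of box C/D particles were past the limit, from Snu13 at 1.80 and Fbl at 2.02 to Nop58 at 2.81 (log2). All 4 of box H/ACA particles were past it, from Nop10 at 1.26 and Dkc1 at 2.40 to Nhp2 at 2.60 and Gar1 at 2.76. Of 9 assembly factors 7 were past it, led by Nolc1 at 2.94 and Znhit6 at 2.78, while Znhit3 at 0.83 and Pih1d1 at -0.20 were not. All 21 nucleolar and ribosome biogenesis genes were past it, with a median of 2.48, from Ubtf (a factor of RNA polymerase I) at 0.76 to Rrp12 at 3.06 and Gnl3 (nucleostemin) at 3.07.

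In CPM, Gas5 (log2 ratio 0.15) and Snhg8 (0.12) stood near the medians of lists in which most genes were not past the limit. These lists were not described under the trimmed mean scaling of edgeR. Of 81 ribosomal protein genes that passed the level limit, 4 were past 1.5 times higher and 2 lower, with a median of -0.02 and extremes of 1.79 for Rpl7l1 and -0.82 for Rpl39. Of 14 translation mRNAs with terminal oligopyrimidine tracts, 2 were higher (Hnrnpa1 at 1.41 and Eef1g at 0.87) and 1 was lower (Eif3f at -0.98), with a median of 0.23. Of 10 factors of nonsense-mediated decay 1 was past the limit higher and 0 lower: Upf1 stood at 0.76 and Smg5 at 0.72, and Upf3b at -0.53 and Upf2 at -0.39 were the lowest.

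The genotype question was tested on UMIs summed per library, with edgeR over all genes, and none of the 7 hosts passed the threshold for a difference between the labels. The estimates of all 7 were lower in the libraries labelled Irf5-/-, in all cells, in resting cells and in activated cells, where 49.96%, 50.1% and 49.9% of all genes tested were lower. The other lists of the pathway were also mostly lower in all cells and, with the same counts, in activated cells: 20 of 21 nucleolar genes, 14 of 14 translation mRNAs with terminal oligopyrimidine tracts, 12 of 14 protein-coding hosts and 8 of 11 tested noncoding hosts. In resting cells these counts were 7, 12, 6 and 8. The lists share genes: the protein-coding hosts hold Ncl and Wdr43 of the nucleolar genes and Eef1b2, Eef2 and Rack1 of the translation mRNAs. Not every sign of the 7 hosts held: in resting cells Snhg4 stood at 0.057 with DESeq2. Without the male library labelled WT Snhg4 stood at 0.34 and Snhg8 at 0.031 in resting cells and Snhg1 at 0.0055 in all cells. In these sums 0 of 7 passed an adjusted p of 0.05, where 1.21% of 12855 genes were called in all cells, 0.986% of 10443 in resting cells and 1.24% of 11983 in activated cells. At an unadjusted p under 0.05 the edgeR counts were 3 of 7 in all cells, 1 of 7 in resting cells and 4 of 7 in activated cells, where such genes made up 8%, 6.39% and 9.61% of all genes. DESeq2 also called 0 of 7. Each label has 2 libraries, so the spread behind these p-values is estimated partly from all genes together, and it may be technical.

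Zfas1 had the largest difference in all cells. It stood at 173 and 172 CPM (scaled by edgeR) in the female and male library labelled Irf5-/- and at 205 and 208 in those labelled WT, so the labels did not overlap. Its log2 difference was -0.26 (SE 0.08, 95% interval -0.44 to -0.08, edgeR adjusted p = 0.276). In resting cells it stood at 109 and 105 against 157 and 133, a difference of -0.42 (SE 0.11, edgeR adjusted p = 0.0604), and in activated cells at 188 and 188 against 221 and 227, a difference of -0.25 (edgeR adjusted p = 0.209).

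Snhg8 stood at 157 and 155 against 171 and 201 in all cells, -0.25 (SE 0.09, edgeR adjusted p = 0.396), and the male pair differed more than the female pair (-0.37 against -0.13). Snhg6 stood at 175 and 162 against 188 and 204, -0.22 (SE 0.09, edgeR adjusted p = 0.504), again with the male pair further apart (-0.33 against -0.11). Snhg4 differed by -0.17, Snhg12 by -0.14, Gas5 by -0.13 and Snhg1 by -0.05, with edgeR adjusted p-values of 0.663 to 0.979. Without the male library labelled WT, Snhg8 stood at -0.13, Snhg12 at -0.067 and Gas5 at -0.061, and without the female library labelled WT at -0.37, -0.21 and -0.20. Without the female library labelled Irf5-/- Snhg12 stood at -0.077. The 95% interval of Snhg1, -0.22 to 0.13, holds no change and small changes either way. Both libraries labelled Irf5-/- lay below both labelled WT for 6 of 7 hosts in all cells (all but Snhg1), 4 of 7 in resting cells and 6 of 7 in activated cells, where 17.3%, 17.2% and 19.2% of all genes tested did so.

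**Figure D5:**
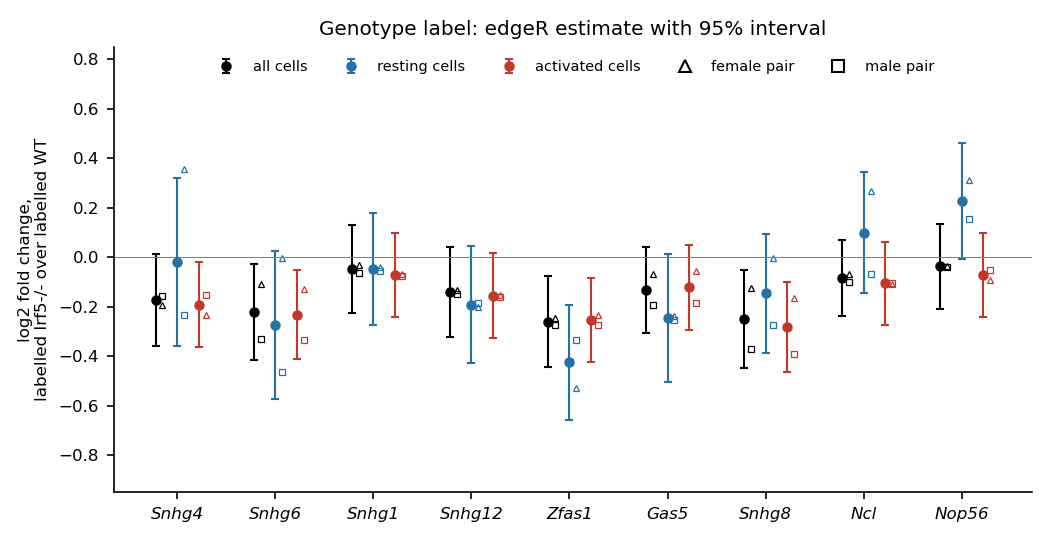
Log2 difference between libraries labelled Irf5-/- and labelled WT (vertical axis) for each host, Ncl and Nop56 in all (black), resting (blue) and activated cells (red); circles and bars are the edgeR estimate and its 95% interval, open triangles the female pair and open squares the male pair. All 21 host estimates lie below 0, and none passed the adjusted threshold.

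Leaving out a library labelled WT changed the call for 5 hosts in activated cells, in fits that drop the sex term. These fits hold 1 library labelled WT, which is assumed to vary like the others. Their p-values rest on the spread between the 2 libraries labelled Irf5-/- and on a spread shared over all genes. Such p-values are no sign of a firmer difference. Without the female library labelled WT, edgeR called Snhg8 (-0.39, adjusted p = 6.87e-05), Snhg6 (-0.29, adjusted p = 0.00425), Zfas1 (-0.27, adjusted p = 0.0112) and Gas5 (-0.20, adjusted p = 0.0404), and it called 779 genes in all against 148 with every library. With every library the edgeR estimates were -0.28 for Snhg8 (adjusted p = 0.178), -0.23 for Snhg6 (adjusted p = 0.324) and -0.12 for Gas5 (adjusted p = 0.728). Without the male library labelled WT, it called Zfas1 (-0.23, adjusted p = 0.0212) and Snhg4 (-0.21, adjusted p = 0.0412), among 665 genes, while Snhg8 stood at -0.16 (adjusted p = 0.146), Snhg6 at -0.17 (adjusted p = 0.174) and Gas5 at -0.040 (adjusted p = 0.856). In all cells and in resting cells no host was called without any 1 library.

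Depth, free RNA and the share of cells with markers of other types moved with the labels. The median cell held 5104.5 and 6741 UMIs in the female and male libraries labelled Irf5-/- and 8416 and 9661 in those labelled WT. Droplets under 200 UMIs held 8.62% and 9.56% of UMIs against 36.2% and 14.7%. Cells with markers of B, NK, CD8 T, erythroid or myeloid cells made up 4.39% and 4.62% against 7.11% and 7.67%. The limit for these markers counts raw UMIs, which deeper cells reach more easily, so these shares mix the number of such cells with depth. Of 7 erythroid markers 5 were higher in both libraries labelled WT, with a summed level of at most 24.2 CPM in the libraries labelled Irf5-/- against 1419 and 43.3, and none was at 0 in all libraries. Of 6 B cell markers 0 were higher in both, with a summed level of 168 and 80.1 against 29.4 and 26.8. Summed NK cell markers stood at 7.16 to 17.5 CPM in the libraries labelled Irf5-/- against 10.4 to 11.99 in those labelled WT, CD8 T cell markers at 8.96 to 10.3 against 7.86 to 7.90, and myeloid markers at 1.72 to 36.7 against 2.39 to 2.75. Summed regulatory T markers stood at 593 and 542 CPM against 495 and 438, and the regulatory T-like cluster 6 held 4.84% and 4.83% of cells against 2.26% and 2.98%. Without that cluster Snhg8 differed by -0.24, Snhg6 by -0.20, Snhg4 by -0.15 and Zfas1 by -0.25 in all cells, and edgeR called 0 of 7 hosts in all, resting or activated cells. After thinning every cell to 2000 UMIs Zfas1 differed by -0.26 and Snhg8 by -0.25 in all cells, and without cells with markers of other types by -0.27 and -0.26. Thinning moved other hosts: Snhg12 to -0.066 in all cells and from -0.15 to -0.073 in activated cells, and in resting cells Snhg4 from -0.020 to -0.23 and Snhg1 from -0.047 to -0.18, none of them called. Leaving out each library in turn, without thinning, spread Snhg12 in activated cells from -0.22 to -0.082. It spread Snhg1 in resting cells from -0.076 to -0.0087. The part of free RNA was not tested; its level of each host relative to all cells of the library ran from 0.57 for Snhg4 to 1.15 for Gas5 (means of 4 libraries).

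Whether the genotype difference itself differed between activated and resting cells was tested by the interaction term. It was called for 0 of 7 hosts, where 0.218% of 11488 genes were called, and 0 of 7 had an unadjusted p under 0.05 in edgeR, where 7.95% of all genes did. The estimates ran from -0.14 for Snhg4 (95% interval -0.48 to 0.19) to 0.16 for Zfas1 (95% interval -0.07 to 0.39). Without the female library labelled WT Zfas1 stood at 0.0089 and Snhg4 at 0.010, without the male one Snhg4 stood at -0.64, and with state limits of 2 and -2 Zfas1 stood at 0.086. Ncl and Nop56 stood at -0.20 and -0.30, with edgeR adjusted p-values of 0.290 and 0.200. In the same interaction fit edgeR called 0 of 14 protein-coding hosts, 0 of 4 box C/D proteins and 0 of 21 nucleolar genes, with 7, 3 and 3 at an unadjusted p under 0.05. Between labels in all cells, 0 of 11 tested noncoding hosts, 0 of 14 protein-coding hosts and 0 of 21 nucleolar genes were called by edgeR, with 2, 0 and 2 at an unadjusted p under 0.05.

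Between sexes, 0 of 7 hosts were called by edgeR, where 1.31% of 12855 genes were, and 0 of 7 had an unadjusted p under 0.05, where 7.84% did. The estimates, male over female, ran from 0.002 for Zfas1 (95% interval -0.18 to 0.18) to 0.14 for Snhg12 (95% interval -0.04 to 0.32). Leaving out each library in turn moved Snhg12 between 0.063 (without the male library labelled WT) and 0.21 (without the male library labelled Irf5-/-).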

How the data were processed

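For each of the 4 libraries the authors deposited raw UMI counts of every gene in every droplet barcode, empty droplets included and not normalized. The submitters' processing notes name Cell Ranger 6.0.2 and mm10; the file headers name Cell Ranger 4. The annotation and the use of strand are not given in the sources used here. Members and gene lists were chosen with earlier results of these data known.

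Cells were kept at 2000 or more UMIs, 500 or more genes and at most 10% mitochondrial UMIs. Levels are CPM of summed counts; genotype and sex used edgeR 4.0.16 (TMM, filterByExpr, quasi-likelihood test, Benjamini-Hochberg over all genes, threshold 0.05) on sums per library, with sex and genotype label as terms, and with the library as a block for the interaction. DESeq2 1.42.0 was an alternative. For the genotype label in all cells, data were simulated with changes in 200 of the better-detected genes. The edgeR step recovered 86.5% of log2 changes of 0.5 (12636 genes tested, 2.81% of calls false) and 100% of changes of 1 (12647 genes tested). The simulation held no effect of sex and no difference in free RNA or cell mix. Changes as small as the host estimates in all cells were not simulated, so it does not measure how often they would be called.

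Ratios of activated over resting cells for gene lists used 0.5 UMI as pseudocount and genes with a mean CPM of 5 or more. Clusters came from scanpy 1.11.5 and leidenalg 0.10.2 (2000 variable genes, 30 principal components, 15 neighbours, resolution 0.5). Doublets were kept; leaving out the highest scrublet scores (0.8% per 1000 cells), and leaving out the regulatory T-like cluster, were alternatives chosen after seeing the data. Beside the members, Ncl, Nop56 and Irf5, the genes named are the 2 highest and 2 lowest of each list and the 10 nearest to the summed hosts; neighbouring genes, the genes near single hosts and 2410006H16Rik were chosen after their values were seen. GENCODE M21 matched 99.6% of 32285 identifiers. Alternatives were DESeq2, no filter, no sex or genotype term, thinned cells, cells without markers of other types, other state limits, TMM, other correlations and leaving out each library. Cells with at least 2 UMIs of another type's markers (10 for erythroid) counted as such.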

Additional observations from a re-analysis of the deposited data

How the results depend on the processing

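In activated over resting cells Snhg1, Snhg4, Snhg6 and Snhg12 passed 1.5 times in all libraries under every alternative run, and Zfas1 joined them with TMM, with limits of 2 and -2, without cells with markers of other types and without the female library labelled WT; the member count was 4 to 5 when a library was left out. Without the filter on low counts 3739 genes were lower instead of 2359. Calls for the genotype label in all cells (155) numbered 46 with DESeq2, 20 without the filter, 7 without the sex term, 73 without the regulatory T-like cluster and 43 to 117 when a library was left out. In resting cells (103) they numbered 7 with DESeq2, 12 without the filter, 5 without the sex term, 28 without cells with markers of other types, 24 after thinning, 34 without doublets and 13 to 34 when a library was left out. In activated cells (148) they numbered 32 with DESeq2, 13 without the sex term, 277 without cells of other types, 44 after thinning and 30 to 779 when a library was left out. For the interaction (25) they numbered 136 without the filter, 52 with a state limit of 0, 5 without the regulatory T-like cluster and 35 to 322 when a library was left out. For sex (168) they numbered 32 with DESeq2, 12 without the filter, 6 without the genotype term and 12 to 78 when a library was left out. The cause of these differences was not tested.

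Some estimates, none of them called, changed sign. Snhg4 in resting cells gave 0.057 with DESeq2. In the interaction Snhg12 gave -0.0031 without the filter and -0.072 with a limit of 0, Snhg1 gave 0.14 with limits of 2 and -2 and 0.031 without doublets, and Snhg6 gave 0.040 without doublets and 0.031 without the regulatory T-like cluster. For sex, Snhg4 and Snhg6 gave -0.00052 and -0.00059 without cells of other types, Snhg4 gave -0.025 after thinning and Zfas1 gave -0.0050 without doublets. When a library was left out, the genotype estimates ran from -0.099 to 0.0055 for Snhg1 in all cells, and in resting cells from -0.21 to 0.34 for Snhg4 and -0.30 to 0.031 for Snhg8. The interaction ran from -0.13 to 0.040 for Snhg1, -0.64 to 0.010 for Snhg4, -0.15 to 0.14 for Snhg6 and -0.060 to 0.038 for Snhg12. Sex ran from -0.077 to 0.12 for Snhg4, -0.16 to 0.17 for Snhg6, -0.073 to 0.30 for Snhg8, -0.017 to 0.18 for Gas5 and -0.14 to 0.14 for Zfas1. Correlations with Ncl or Nop56 above 0.1 numbered 8 of 14 pairs, and 12 with all UMIs scaled to 10000 in place of thinning. The labels give no replicate numbers to pair libraries by; the sex term of the genotype fits sets female against female and male against male, and the counts without it are those above. Each fit that leaves out a library has 1 library for one label, or for one sex in the sex fits.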

Other observations

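Snhg9, a noncoding host outside the 7, had a share far higher in droplets under 200 UMIs than in cells, by 6.25 ± 2.63 times (mean ± SD, n = 4 libraries), while the 7 hosts ran from 0.57 to 1.15 times. It was singled out after its values were seen.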
